A study of Drosophila melanogaster with 78 samples.

Results

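The 398 circular RNAs (circRNAs) with the shortest genomic spans were taken from a survey of circRNAs in female Drosophila melanogaster. The circRNAs were ordered by the distance from the first to the last base of the circle, and the 398 shortest were kept and compared with the remaining 796, with no expression value used. Spans of these short circles ran from 51 to 816 bases with a median of 507, against a median of 1929.5 bases in the remaining 796. Total RNA came from 4 tissues (brain, thorax, gut and fat body) and 3 ages (days 10, 30 and 50). The flies were wild-type wDah, an outbred white-eyed Dahomey stock carrying Wolbachia, or dilp 2-3,5 mutants. The mutants lack 3 genes for insulin-like peptides (dilp2, dilp3 and dilp5) and had been backcrossed into the wDah stock for at least 6 generations. Each of the 24 groups of tissue, age and genotype held 3 biological replicates, which gave 72 libraries. Another 6 libraries held polysome-bound RNA of day 10 fat body, 3 per genotype. Thorax was taken without the gut, gut without the crop but with malpighian tubules, and fat body was the abdomen without gut and ovaries, so that other cells of these body parts are included. In such bulk samples, fewer cells of a type and less RNA per cell cannot be told apart, and p-values measure the spread between these 3 replicates.

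A circRNA forms when the spliceosome joins the end of an exon to the start of the same or an earlier exon. The closed ring has no free ends for exonucleases, and circRNAs of the fly are best known from the nervous system, where they build up with age. Reads across that backsplice junction count the circle, and reads that cross the same splice sites to neighbouring exons count its linear partner. The ratio given here is circular reads per 100 linear reads at the same sites.

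Libraries of the brain held 16637 to 38812 circular reads, and those of the other tissues 503 to 8344, so the short circles were counted most precisely in the brain. Linear reads ranged from 60382 to 245298 per library. No linear count of any circRNA in any library exceeded 8044, and 423 counts lay over 7000, so the linear partner of the most abundant hosts may be undercounted. The day 10 libraries were generated independently of those of days 30 and 50, so age and preparation cannot be told apart where day 10 is compared. In the pooled FPKM tables, the neuronal genes nSyb, elav and brp were highest in brain (22.9 to 79.5 FPKM) and the flight muscle genes Act88F and TpnC4 in thorax (34.4 to 509). The digestive genes alphaTry, betaTry and Jon65Aiii were highest in gut (4658 to 24060). For fat body the label was less clear. The fat body gene apolpp reached 1287 to 5656 FPKM there and up to 2668 in thorax, and Lsp2 was higher in thorax than in fat body. Fat body genes were found in brain too, with apolpp at 532 to 1470 FPKM and Yp1 at 3037 to 7786. In brain Lsp2 was at 8.32 to 237 FPKM, against 0.836 to 10.3 in fat body. The part of such transcripts in the brain results was not tested. The ovary genes osk and nos were at 12.3 to 64.7 FPKM in fat body, and the other tissues reached 12.8.

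Most of the short circles were made of complete exons. Both ends matched annotated exon ends of the same transcript in 333 of the 398 circles (83.7%), compared with 92.6% of the remaining circRNAs. Among these 333 there were 106 of a single exon, 193 of 2 exons, 27 of 3 exons and 7 of 4 or more. Their median spliced length was 407 nt, with quartiles of 297 and 550, against 817 nt in the remaining circRNAs, and exons filled a median of 84.1% of the span against 38.2%. An annotated start codon lay within 107 of the 398 circles (26.9%) and within 36.9% of the others. The introns next to the circles were longer, with medians of 3771 bases upstream and 2908 downstream against 2802 and 2285. The median GC content of the spans was 49.0% against 45.0%. Within the remaining circRNAs it was 48.7% in the 398 with spans of 817 to 1929 bases and 42.8% in the 398 with longer spans. The lower GC content was therefore found in the longest circRNAs, and those next in span were close to the short circles. Directly outside the ends, 377 of the 398 circles had AG before and GT after them on their own strand, the letters of the usual splice sites, as did 793 of the remaining 796. The last circle inside the limit was that of GluClalpha, a glutamate-gated chloride channel (816 bases, 283 circular and 3851 linear reads), and the first outside came from olf413 (817 bases, 73 circular and 606 linear reads).

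To show the junctions that were counted, 30 bases around the backsplice are printed for abundant short circles, from the Release 6 genome (BDGP6), 5′ to 3′ on the strand of the host. The lower-case letters are the last 15 bases of the circle and the capitals its first 15. They are the circles of CaMKI (chr4:449924-450509, plus strand), Dbp80 (chr3L:27331994-27332346, plus), scro (chr3L:24725824-24726292, plus), Ca-alpha1D (chr2L:16174416-16175007, plus) and btsz (chr3R:14859309-14860067, minus).
CaMKI: catcgtgatcttaagGTTCAGTGCAAATCA
Dbp80: cattcgaatacacaaGTTCTGTGTTTATCC
scro: accatctccgtttcgCGATAAAAGCCTACT
Ca-alpha1D: gcgatgagatcacagGGCGATAAGTACTGC
btsz: tgccactagaatgatGTATCAATTTGCCCA
The CaMKI circle joins 3 exons of 259 nt in all, the Dbp80 circle 2 exons of 293 nt and the Ca-alpha1D circle 2 exons of 260 nt. The scro and btsz circles are single exons of 469 and 759 nt. The CaMKI, Dbp80, scro and btsz circles contain an annotated start codon and the Ca-alpha1D circle does not.

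The other 65 short circles (16.3% of the 398) did not end at an exon pair of 1 transcript, and their counts were unlike those of the others. Of these, 45 had spans under 300 bases, and their hosts included 7SL RNA (the RNA of the signal recognition particle), Rfabg (a lipophorin precursor), the yolk proteins Yp1, Yp2 and Yp3, ribosomal proteins, the elongation factor EF2 and the trypsin betaTry. The host Rfabg alone gave 8 of the 398 circles and lcs gave 6. The linear reads at the 65 junctions made up 71.7% of the linear reads of all circRNAs, while their circular reads made up 2.82%. Together they had 0.254 circular reads per 100 linear reads, against 29.4 for the 333 circles at an exon pair and 17.6 for the remaining circRNAs. The 21 circles without the AG and GT letters all belonged to the 65.

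At many of these ends the same bases occur at both ends of the circle. The sequence around the first base and around the last base shared a run of 5 or more bases in 24 of the 65 (36.9%), in 15 of the 333 circles at an exon pair (4.50%) and in 43 of the remaining 796 circRNAs (5.40%). The windows of 5 circles in abundant mRNAs are printed 5′ to 3′ on the host strand, with the shared bases in capitals: RpS3 (chr3R:23359310-23359393, plus strand) and RpL6 (chr3R:31595434-31595520, minus), both ribosomal proteins, Rfabg (chr4:1070749-1070923, plus), Yp2 (chrX:10052174-10052260, minus) and lcs (chrX:21397019-21397090, minus).
RpS3, around the first base: ctgggCGAGAAGGgccgt
RpS3, around the last base: tacgcCGAGAAGGtggcc
RpL6, around the first base: agaagGTGAAGAAGatcgg
RpL6, around the last base: cgttcGTGAAGAAGcgccc
Rfabg, around the first base: ctatgGAAATCCACtaccc
Rfabg, around the last base: attccGAAATCCACcttga
Yp2, around the first base: gtcccAGTTCAACCatgtc
Yp2, around the last base: gatcgAGTTCAACCtgaac
lcs, around the first base: gacctGGAGGACCAGGaggcc
lcs, around the last base: gcccaGGAGGACCAGGtggac
The shared runs are 8 bases long in RpS3, 9 in RpL6, Rfabg and Yp2, and 11 in lcs. With such a run the exact end of the circle cannot be placed to the base. The part of such repeats in these junction reads was not tested.

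The pair of 7SL genes gave identical circles. The 60-base circles of 7SLRNA:CR42652 (chr3R:6820197-6820256, minus strand) and 7SLRNA:CR32864 (chr3R:6822673-6822732, plus) agree in 60 of 60 bases, and their 119-base circles in 119 of 119, so reads of one gene cannot be told apart from reads of the other. The 60-base sequence of the circle is printed once for both, beside the 60-base circle of Uhg3, a host gene of small nucleolar RNAs (chr2L:20648189-20648248, plus).
7SLRNA:CR42652 and 7SLRNA:CR32864: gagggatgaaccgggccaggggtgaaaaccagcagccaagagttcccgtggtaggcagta
Uhg3: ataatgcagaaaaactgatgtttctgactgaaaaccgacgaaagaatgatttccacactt
The Uhg3 circle is 1 annotated exon of 60 nt and had 1976 circular against 1924 linear reads over the 72 libraries. A 51-base circle of Uhg3 that shares its last base, the shortest in the survey, had 159 circular and 2380 linear reads. The 60-base 7SL circles had 1596 and 478 circular reads against 515339 and 563935 linear reads.

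Some circles without an exon pair were nevertheless more abundant than their linear partners. A 236-base circle of CG44422 had 2510 circular and 650 linear reads, and a 282-base circle of nAChRalpha6, a nicotinic acetylcholine receptor subunit, had 609 and 314. Both were counted almost only in brain, which held 95.8% and 97.5% of their circular reads. Of the 65 circles, 41 had their most circular reads outside the brain, against 46 of the 333 at an exon pair. Whether the junction reads of the 65 come from closed circles was not tested, and they are called circles here because they are listed as circRNAs.

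**Figure D1:**
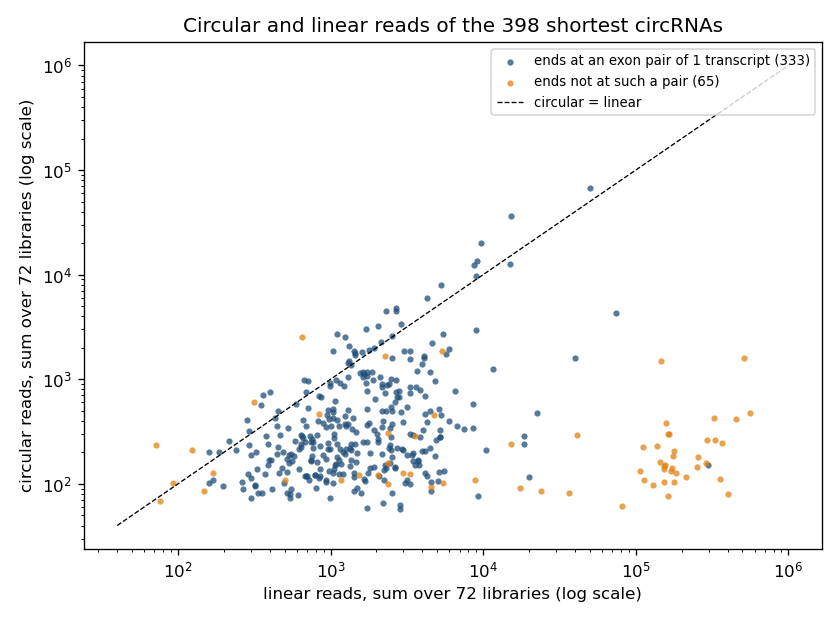
Circular reads (y axis, log scale) against linear reads at the same splice sites (x axis, log scale), each summed over 72 libraries, one point per short circRNA. Circles at an exon pair are blue and the 65 others orange, and the dashed line marks equal numbers. The orange points reach farthest to the right, and 46 of the 398 points lie above the line.

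The short circles were a minority of the circRNAs but held most of the circular reads. They had 388011 of 728374 circular reads (53.3%), although the median circle was little more abundant, at 246 reads against 200 in the remaining circRNAs. A few circles made up the difference. The 10 most abundant short circles held 49.4% of the reads of the 398, and the first pair alone 26.9%, while the top 10 of the remaining circRNAs held 13.5% of theirs. More circular than linear reads were found at 46 of the 398 circles and at 45 of the 796 others.

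The most abundant was the 586-base circle of CaMKI, calcium/calmodulin-dependent protein kinase I, with 67873 circular and 49846 linear reads over the 72 libraries. In wDah flies it had 1232 to 5171 circular reads per brain library (median 3827), 97 to 254 in thorax (170), 3 to 19 in gut (9) and 194 to 373 in fat body (252). The brain libraries lay above all others without overlap, and the gut libraries lay below all others. A second short circle of CaMKI, 268 bases long, ends at the same base but had only 4301 circular reads.

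Next came the 654-base circle of mbl, muscleblind, a splicing regulator whose second exon forms a well-known circle (chr2R:17275410-17276063), with 36385 circular and 15232 linear reads. It had wDah medians of 1031 circular reads in brain, 443 in thorax, 117 in gut and 164 in fat body. Its ratio had medians of 234, 247, 193 and 265 circular per 100 linear reads, and the libraries of the 4 tissues overlapped. A circle called at the same coordinates on the opposite strand had 239 circular reads.

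Of the other 8, the circle of Dbp80, a DEAD-box helicase of mRNA export, was also present in all tissues, with medians of 818, 100, 18 and 54 circular reads in brain, thorax, gut and fat body. The circle of uex, a magnesium transporter gene (chr2R:3938552-3938885), followed with 301, 160, 10 and 32. The remaining 6 had far more circular reads per library in brain, where the libraries were deepest in circular reads. That of scro, an NK2-type homeobox factor, had a median of 710 circular reads in brain and at most 24 in any wDah library of the other tissues. That of p120ctn, an adherens junction catenin, had 613 in brain and at most 28 elsewhere. The circle of Ca-alpha1D, the pore subunit of an L-type calcium channel, had 527 in brain and at most 42 elsewhere. Rgk1 (a small GTPase), CG17684 and Sema-2b (a secreted semaphorin) had medians of 316, 304 and 248 in brain and no more than 25 in any wDah library of another tissue. Of these 6, p120ctn had a higher ratio to linear reads in brain in each of the 3 tissue tests described below. The ratios of scro, Ca-alpha1D, Rgk1, CG17684 and Sema-2b were called in none of them. For scro the log2 changes were 0.46 against thorax, 0.39 against gut and −0.30 against fat body.

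**Figure D2:**
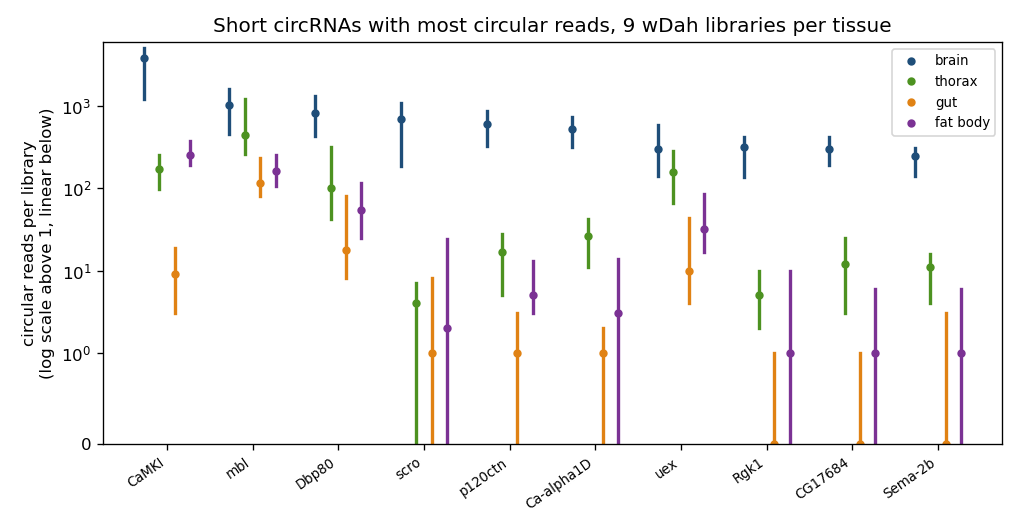
Circular reads per library (y axis, log scale above 1 and linear below) of the 10 most abundant short circRNAs in 9 wDah libraries per tissue; points are medians and bars run from the lowest to the highest library. CaMKI, mbl, Dbp80 and uex were counted in all 4 tissues, whereas scro, p120ctn, Ca-alpha1D, Rgk1, CG17684 and Sema-2b were at 42 reads or fewer outside the brain.

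By tissue, 396 of the 398 circles were detected in brain, 390 in thorax, 320 in gut and 353 in fat body, and 311 had their most reads in brain. In gut and fat body this was 80.4% and 88.7% of the short circles, against 72.7% and 77.1% of the remaining circRNAs. The share of circular reads that came from the short circles was 44.4 to 58.3% per brain library (median 54.4), 53.3 to 63.2% in thorax (57.8), 54.2 to 65.1% in gut (58.4) and 50.3 to 56.8% in fat body (53.0). With the ages pooled, the 4 tissues overlapped. At day 10, brain (44.4 to 48.6%) lay below fat body (50.3 to 53.1%), and fat body below thorax (from 53.3%) and gut (from 54.2%). At day 30, fat body (50.5 to 56.8%) lay below thorax (57.3 to 63.2%). At day 50, fat body (52.4 to 55.0%) lay below thorax (55.1 to 62.3%), and both fat body and brain (53.4 to 56.8%) below gut (57.3 to 61.0%). Other pairs of tissues overlapped at each age. Within the brain, the 6 day 10 libraries (44.4 to 48.6%) lay below all 12 libraries of days 30 and 50 (53.4 to 58.3%). The CaMKI and mbl circles took 6.91 to 9.23% of all brain circular reads at day 10 and 14.5 to 21.7% at days 30 and 50. In thorax, the 3 wDah libraries were above the 3 mutant libraries at each age. At day 10 they had 56.9 to 60.8% against 53.3 to 55.5%. At day 30 it was 61.9 to 63.2% against 57.3 to 60.8%, and at day 50 58.2 to 62.3% against 55.1 to 56.1%. In gut the wDah libraries were above at day 30 only (63.9 to 65.1% against 56.2 to 62.1%). In fat body they were below at day 30 (50.5 to 53.6% against 54.1 to 56.8%). The genotypes overlapped in brain and at the other ages of gut and fat body.

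**Figure D3:**
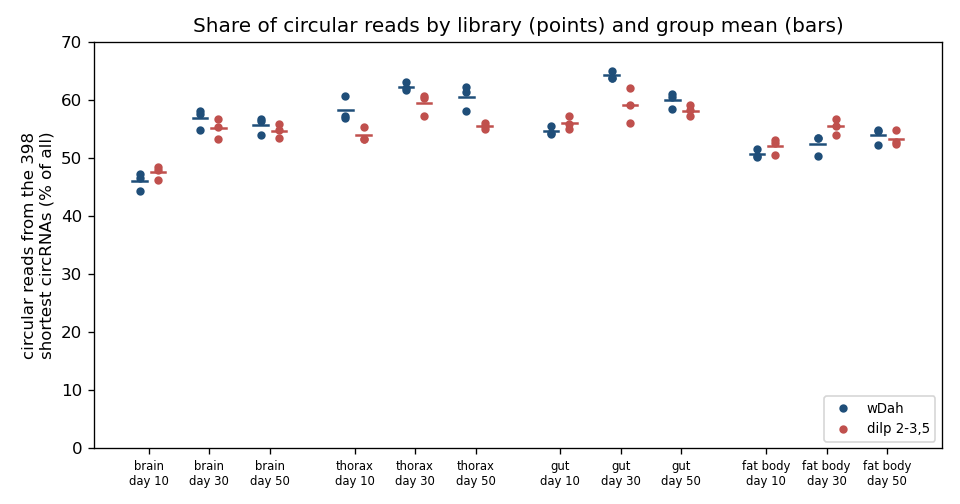
Share of all circular reads that came from the 398 short circRNAs (y axis, %), one point per library, with bars at the mean of the 3 libraries of a group; wDah is blue and dilp 2-3,5 red. The day 10 brain libraries are the lowest, at 44.4 to 48.6%, and the wDah gut libraries of day 30 the highest, at 63.9 to 65.1%.

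Relative to linear reads, the 333 circles at an exon pair were most prominent in brain. They had 24.6 to 69.9 circular per 100 linear reads per brain library (median 52.6), against 15.6 to 39.1 (28.5) for the remaining circRNAs. The medians were 15.5 against 8.55 in thorax, 9.57 against 4.53 in gut and 10.3 against 8.06 in fat body. The limit to exon pairs was added after seeing the data and was not applied to the remaining circRNAs. Over all 398 short circles the order was reversed. Their medians were 13.6 against 28.5 in brain, 1.44 against 8.55 in thorax, 0.879 against 4.53 in gut and 1.17 against 8.06 in fat body. Taken circle by circle, the median short circle had 24.0 per 100 in brain, against 22.0 among the remaining circRNAs. In brain the ratio of the 333 circles was higher at each later age, with medians of 36.1, 52.6 and 63.0 at days 10, 30 and 50. The day 50 libraries (60.6 to 69.9) lay above the day 30 libraries (46.4 to 60.1), and those above the day 10 libraries (24.6 to 40.9). In the other tissues the ages overlapped. The ratio of the remaining circRNAs in brain was also higher at each later age, with medians of 23.9, 27.4 and 31.7. Their day 50 libraries (30.4 to 39.1) lay above those of day 30 (21.2 to 30.2), which overlapped with day 10 (15.6 to 28.4). Where day 10 is compared, age and preparation cannot be told apart.

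To ask where the circle forms a larger part of its host's transcripts, the ratio of circular to linear reads was compared between the 9 wDah brain libraries and the 9 of each other tissue by edgeR's quasi-likelihood test with Benjamini-Hochberg adjustment over all circRNAs tested. The 3 comparisons share the brain libraries. Against thorax, 128 of 392 tested short circles changed (33.2% of all circRNAs tested did), 109 of them higher in brain (29.4% of all). Against gut, 149 of 387 changed (35.6% of all), 146 of them higher in brain (35% of all). Against fat body, 115 of 386 changed (28.5% of all), 106 of them higher in brain (24.7% of all). The shares of short circles were close to those of all circRNAs. The medians of the log2 ratio change over the short circles were 0.56, 1.0 and 0.27, beside 0.66, 0.84 and 0.17 over all circRNAs tested.

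Among the short circles higher in brain, those of CaMKI, Tm1 (tropomyosin 1), Parp (poly(ADP-ribose) polymerase), cact (the IκB-type inhibitor of the Toll pathway), alph (a PP2C phosphatase), lt (a vesicle tethering factor) and CG10737 had the smallest p-values. The CaMKI circle had 109 to 229 circular per 100 linear reads in brain (median 180), 38.9 to 118 in thorax (79.2), 20 to 61.3 in gut (30) and 27.8 to 57.8 in fat body (51). Thorax overlapped with brain at its upper end, and gut and fat body did not. The change was 1.25 ± 0.14 (log2 ± SE, adjusted p = 4.29e-13) against thorax, 2.10 ± 0.24 against gut and 1.78 ± 0.16 against fat body (edgeR quasi-likelihood test).

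The 432-base Tm1 circle had 11 to 68 circular reads in wDah brain libraries (median 42), 13 to 35 in thorax (24), 1 to 4 in gut (2) and 2 to 5 in fat body (3). The median of its linear reads was higher in gut (140) than in brain (85). Brain and gut did not overlap in circular reads or in ratio. Its ratio was higher in brain by 4.74 ± 0.31 (log2 ± SE) against gut and 3.69 ± 0.27 against fat body (adjusted p = 1.64e-20 and 2.04e-39, edgeR). The Parp circle had 56 to 199 circular reads in brain and 0 to 4 in gut, at linear medians of 48 and 23 (log2 4.98 ± 0.33, adjusted p = 4.28e-20, edgeR). The cact circle had 9 to 51 in brain and 1 to 6 in fat body, at linear medians of 54 and 52 (log2 3.34 ± 0.30, adjusted p = 2.05e-27, edgeR). The lt circle had 40 to 175 in brain and 0 to 13 in thorax, at linear medians of 63 and 32 (log2 3.50 ± 0.28, adjusted p = 3.37e-22, edgeR).

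In the circles of alph and CG10737 the host was transcribed in the other tissue while the circle was almost absent. The 233-base alph circle summed to 353 circular reads over the 9 brain libraries and 1 over the 9 gut libraries, with 493 and 375 linear reads (adjusted p = 5.80e-19, edgeR). The CG10737 circle summed to 92 in brain and 2 in thorax, although the linear reads were fewer in brain (294 against 992, adjusted p = 2.34e-24, edgeR). No fold is given for these because the lower side rests on 1 or 2 reads.

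Short circles with a lower ratio in brain were few, and several had more reads elsewhere. The 464-base galectin circle (a carbohydrate-binding protein) had 11 to 33 circular reads in thorax and 0 to 6 in brain, with linear medians of 44 and 39 (log2 −3.67 ± 0.35, adjusted p = 9.50e-17, edgeR). The 742-base Tm1 circle had 3 to 49 in thorax and summed to 1 read over the 9 brain libraries (adjusted p = 1.14e-07, edgeR), so the pair of short Tm1 circles were unlike, the 742-base one nearly absent from brain and the 432-base one counted in both tissues. The circles of CG18659, which share their first base, differed too. The 516-base one had 6 to 32 circular reads in gut and 0 to 3 in brain (log2 −4.28 ± 0.44, adjusted p = 1.08e-12, edgeR), and the 663-base one had more reads in thorax (12 to 37) than in gut (1 to 16). The Cip4 circle (an F-BAR protein) had 8 to 25 in fat body and 3 to 9 in brain, at linear medians of 13 and 15 (log2 −2.0 ± 0.35, adjusted p = 2.21e-07, edgeR).

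For amon, Galphao and sif the lower ratio in brain came with many linear reads there. The circle of amon, a prohormone convertase, summed to 40 circular reads in brain and 35 in thorax, at 1487 and 128 linear reads (log2 −3.30 ± 0.47, adjusted p = 2.33e-09, edgeR). That of Galphao, a G protein subunit, summed to 55 in brain and 31 in fat body, at 1439 and 223 linear reads (log2 −1.78 ± 0.40, adjusted p = 7.46e-05, edgeR). The circle of sif summed to 182 in brain and 2 in gut, with no linear read in gut. When circular reads were compared without their linear partner and with equal library sizes, the directions of all 3 turned, and with TMM scaling that of sif turned.

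In the comparison of genotypes, which asks whether loss of the insulin-like peptides changes how much circle is made per linear transcript, few short circles changed. Over the 12 combinations of tissue and age, 20 calls were made in 2209 tests, 12 higher and 8 lower in the mutant (edgeR quasi-likelihood test). In brain there were 0 of 348 tested short circles at day 10, 1 of 356 at day 30 and 5 of 356 at day 50, where 0.182%, 0.645% and 1.19% of all circRNAs tested were called. In thorax there were 5 of 202 at day 10 and 1 of 169 at day 50 (1.87% and 1.01% of all). In gut there were 2 of 78 at day 30 (1.54% of all), and in fat body 6 of 137 at day 10 (3.95% of all). In the 6 combinations with no short circle called, 59 of 911 had an unadjusted p under 0.05 (4.96% of all circRNAs tested) and DESeq2 called 0. Of the 20 calls DESeq2 made 1, the 60-base 7SL circle of CR32864 in fat body, so that none of the brain, thorax and gut calls named here passed in both tools. Each of the 20 calls was lost without at least 1 of the libraries compared, and without 1 replicate at a time their number ran from 7 to 31.

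The clearest brain difference was in the btsz circle, from the gene bitesize that encodes a synaptotagmin-like protein. Its circular reads in the 3 wDah and the 3 mutant brain libraries were 170, 63 and 59 against 510, 451 and 330 at day 10. They were 15, 8 and 8 against 39, 211 and 186 at day 30, and 11, 11 and 10 against 160, 200 and 248 at day 50. The mutant libraries were above the wDah libraries at every age without overlap. The linear reads differed in the same direction (43 to 64 against 115 to 179 at day 10), but less. The ratio, in circular per 100 linear reads, overlapped at day 10 (128 to 266 against 252 to 287). At day 50 it was 73.3 to 157 against 270 to 323, without overlap, as at day 30. The change was 1.71 ± 0.41 (log2 ± SE, adjusted p = 0.0273) at day 30 and 1.55 ± 0.39 (adjusted p = 0.0177) at day 50, and at day 10 it was 0.65 ± 0.36 (adjusted p = 0.999, edgeR). Without wDah replicate 2 the adjusted p became 0.164 at day 30 and 0.343 at day 50, and without wDah replicate 3 it was 0.142 and 0.132. At day 30 it was also 0.0723 and 0.110 without mutant replicates 1 and 2.

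A circle of dpr6, an immunoglobulin-type surface protein of neurons, went the other way. It had 20, 14 and 33 circular reads in wDah and 3, 5 and 2 in mutant brains at day 50, at similar linear reads (18, 19 and 32 against 16, 13 and 20). At days 10 and 30 the wDah libraries were also all above the mutant ones, with 18 to 32 against 2 to 9 and 14 to 18 against 1 to 8. The change at day 50 was −2.21 ± 0.51 (log2 ± SE, adjusted p = 0.00718, edgeR), with an adjusted p of 0.147 without mutant replicate 3. The 701-base circle of CG34114 had 105, 113 and 71.4 circular per 100 linear reads in wDah and 40.4, 28.6 and 42.9 in the mutant at day 50 (log2 −1.31 ± 0.32, adjusted p = 0.0143, edgeR). The adjusted p was 0.0621 to 0.226 without each of 3 libraries. At days 10 and 30 the ranges of this circle overlapped. Also at day 50, the circle of Dscam4, another immunoglobulin-type surface protein, had 2, 4 and 5 circular reads in wDah and 19, 11 and 21 in the mutant (log2 1.86 ± 0.47, adjusted p = 0.0177, edgeR). That of Glut4EF, a transcription factor, had 56, 69 and 83 circular and 54, 89 and 90 linear reads in wDah, and 51, 53 and 57 circular and 109, 101 and 106 linear reads in the mutant (log2 −0.81 ± 0.21, adjusted p = 0.0195, edgeR). The last of these calls was lost without any 1 of 5 of the 6 libraries (adjusted p of 0.0522 to 0.151), and that of Dscam4 without any of 4 (0.0863 to 0.149). In the day 50 brain libraries nSyb was at 38.3 FPKM in wDah and 48.9 in the mutant, elav at 25.6 and 36.7, and alphaTry at 125 and 48.1, and their part in these results was not tested.

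In thorax, a pair of circles of muscle genes had lower ratios in the mutant at day 10. In the same libraries the muscle genes Act88F, Mhc and TpnC4 were at 34.4, 258 and 193 FPKM in wDah and 163, 453 and 276 in the mutant, and the digestive genes alphaTry, betaTry and Jon65Aiii at 1116, 638 and 686 against 285, 128 and 181. Their part in the thorax results was not tested. The 742-base Tm1 circle had 49, 37 and 34 circular reads against 33, 24 and 23, and its linear reads were higher in the mutant (344 to 452 against 509 to 646). The ratios of 8.08 to 10.8 and 3.56 to 5.8 per 100 did not overlap (log2 −1.08 ± 0.24, adjusted p = 0.00652, edgeR), and the adjusted p was 0.056 to 0.0805 without 3 single libraries. The circle of Unc-89, the sarcomere protein obscurin, had 17, 12 and 13 against 10, 3 and 10 circular reads (log2 −1.62 ± 0.42, adjusted p = 0.0309), a call lost without any 1 of the 6 libraries (0.056 to 0.207). The circle of CG40178 had 1, 5 and 6 reads in wDah and none in the mutant, with 23 to 25 and 17 to 29 linear reads (adjusted p = 0.0408, edgeR). The 60-base Uhg3 circle had 3, 5 and 10 against 16, 11 and 17 (log2 1.75 ± 0.47, adjusted p = 0.0411, edgeR), and at day 30 its ratio was higher in wDah. The CG40178 call was lost without any of the 3 mutant libraries and the Uhg3 call without any of 5 libraries (adjusted p of up to 0.294). The fifth thorax call of day 10, CaMKI, is described with the test of genotype and age. At day 50 the uex circle had 111, 127 and 105 circular per 100 linear reads in wDah and 87.2, 64.9 and 73.5 in the mutant (log2 −0.61 ± 0.15, adjusted p = 0.0280, edgeR), and the adjusted p was 0.0664 to 0.364 without each of 4 libraries. At day 10 the uex ratios overlapped. At day 50 Act88F and TpnC4 were at 97.9 and 64.7 FPKM in wDah thorax and 509 and 288 in the mutant, and betaTry at 457 and 159.

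The fat body calls at day 10 were all in 1 direction. The median log2 ratio change was 0.78 over the 137 short circles tested and 0.81 over all circRNAs tested, so the short circles moved with the rest, and 118 of the 137 were higher in the mutant. The circle of CG17646, a predicted ABC transporter, had 50, 95 and 80 circular reads in wDah and 203, 125 and 193 in the mutant, at linear reads of 368 to 449 and 350 to 473 (log2 1.21 ± 0.39, adjusted p = 0.0431, edgeR). The 60-base 7SL circle of CR32864 had 31, 27 and 25 against 96, 75 and 145, and that of CR42652 14, 9 and 7 against 35, 24 and 48. The circle of Ndae1, a sodium-driven anion exchanger, had 10, 30 and 17 against 58, 37 and 36 (log2 1.69 ± 0.44, adjusted p = 0.0135). Those of CG45050 (3, 6 and 2 against 25, 15 and 11) and CG31688 (6, 5 and 12 against 26, 5 and 19) were also called, the latter with overlapping counts. At days 30 and 50 the CG17646 changes were 0.32 and 0.17 with overlapping ratios. Without linear counts over 7000 the CG17646 call was lost (adjusted p = 0.0547, edgeR). The linear counts of both 7SL circles lay between 7453 and 7556 in all 6 libraries, close to the highest linear count of any circRNA, so their change rests on circular reads. In these day 10 libraries the digestive genes alphaTry, betaTry and Jon65Aiii were at 948, 526 and 505 FPKM in wDah and 45.1, 20.7 and 24.8 in the mutant. The ovary genes osk, nos and vas were at 54.1, 42.7 and 10.0 FPKM in wDah and 28.5, 29.7 and 5.04 in the mutant, and Yp1 was listed at 0 in wDah. Their part in the result was not tested. Each call was lost without at least 2 of the 6 libraries, with an adjusted p of up to 0.362.

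In gut at day 30, the circle of Lerp, a lysosomal enzyme receptor, had 0, 1 and 1 circular reads in wDah and 6, 3 and 4 in the mutant, at more linear reads in wDah (108 to 175 against 51 to 67, adjusted p = 0.0123, edgeR). The 218-base circle of betaTry, one of those without an exon pair, had 10, 9 and 11 against 0, 1 and 0 (adjusted p = 0.0124, edgeR). The betaTry gene was at 9946 and 10168 FPKM in these groups, and osk at 0.759 and 8.43. Without 1 library, these calls were lost in 3 and 4 cases, with an adjusted p of up to 0.158. Gut libraries held as few as 503 circular reads, so that few short circles passed the minimum of 10 circular and 10 linear reads there, 67 to 109 per comparison.

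Between days 30 and 50, a comparison that does not use the independently generated day 10 libraries, 3 of 353 tested short circles changed in wDah brain, all higher at day 50 (0.37% of all circRNAs tested were called, edgeR). None was called in the other 7 combinations, where 52 of 1039 had an unadjusted p under 0.05 (6.37% of all) and DESeq2 called 0. DESeq2 called 0 of the 353 in wDah brain too, so all 3 calls rest on edgeR. The circle of CG41099 had 24.6, 27.0 and 46.4 circular per 100 linear reads at day 30 and 87.0, 76.7 and 57.1 at day 50 (log2 1.20 ± 0.30, adjusted p = 0.05). The circle of CG31221 had 1 read in each day 30 library and 6, 5 and 12 at day 50, with 66 to 101 and 41 to 106 linear reads (adjusted p = 0.0259). The 60-base 7SL circle of CR32864 had 9, 13 and 8 against 21, 39 and 41 (log2 1.66 ± 0.39, adjusted p = 0.0259). Its linear counts, 6859 to 7984 at day 30 and 7590 to 7793 at day 50, were close to the highest of any circRNA, so this change rests on circular reads. Without linear counts over 7000 this circle was not tested, and 1 of the 3 calls, CG31221, held. Without 1 library at a time, each of the 3 calls was lost in at least 4 of 6 cases (adjusted p of up to 0.611). In the mutant brain the ratios overlapped for CG41099 (23.3 to 43.9 and 34.2 to 67.5) and were separate for CG31221 (0.763 to 1.67 and 4.39 to 6.5).

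Day 50 differed from day 10 in many more short circles. In wDah brain 112 of 359 changed (26.2% of all circRNAs tested), 100 of them higher at day 50 (24.4% of all), and in mutant brain 57 of 357 (11.8% of all), 51 of them higher (11.1% of all). DESeq2 called 62 and 33 short circles in these comparisons. As a share of those tested, this was 31.2% of the short circles and 23.8% of the remaining circRNAs in wDah, and 16% and 9.83% in the mutant. The median log2 changes of the short circles, 0.71 and 0.60, were close to those of all circRNAs, 0.72 and 0.52. In thorax 35 of 183 changed in wDah and 54 of 207 in the mutant (13.9% and 16.4% of all), more of them lower than higher, with medians of −0.56 and −0.43. In gut it was 21 of 88 and 8 of 108 (14.5% and 5.61% of all), and in fat body 20 of 127 and 17 of 137 (8.52% and 6.49% of all). The circles without an exon pair were called more often than those at an exon pair in all 8 comparisons. For brain these were 15 of 41 against 97 of 318 in wDah and 11 of 36 against 46 of 321 in the mutant. The same order of genotypes gave 14 of 28 against 21 of 155 and 22 of 35 against 32 of 172 in thorax. It gave 10 of 17 against 11 of 71 and 5 of 17 against 3 of 91 in gut. For fat body it gave 14 of 26 against 6 of 101 and 8 of 28 against 9 of 109. Over the 8 comparisons of days 50 and 10, the 324 calls of short circles became 270 without linear counts over 7000.

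In brain, the change was larger in circles of short spliced length. The 46 short circles at an exon pair with a spliced length of up to 250 nt stood apart, a limit that was chosen after the values were seen. In wDah brain 45 of them were tested, with a median log2 change of 2.28 (quartiles 1.09 and 3.32), and 33 were called, 31 of them higher at day 50. Circles of over 250 and up to 400 nt had a median of 0.58 (24 of 111 called), those of up to 550 nt 0.66 (18 of 83), those of up to 700 nt 0.52 (17 of 52) and longer ones 0.86 (5 of 27). In mutant brain the median was 1.64 up to 250 nt, with 26 of 45 called, 25 of them higher, and 0.37 to 0.59 in the longer classes, with 1 to 10 calls each. The remaining circRNAs of up to 250 nt had medians of 2.13 (26 tested, 22 called) and 2.02 (25 tested, 14 called), so the same was measured at longer spans. From day 30 to day 50 the medians of the circles of up to 250 nt were 0.17 in wDah and 0.07 in mutant brain, with none called (4 and 0 of all circRNAs tested there were called, edgeR). In thorax the circles of up to 250 nt had medians of −0.07 and 0.43 in the 2 genotypes, against −0.39 to −1.14 and −0.45 to −1.41 in the longer classes. The preparation of the day 10 libraries cannot be told apart from age here.

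**Figure D4:**
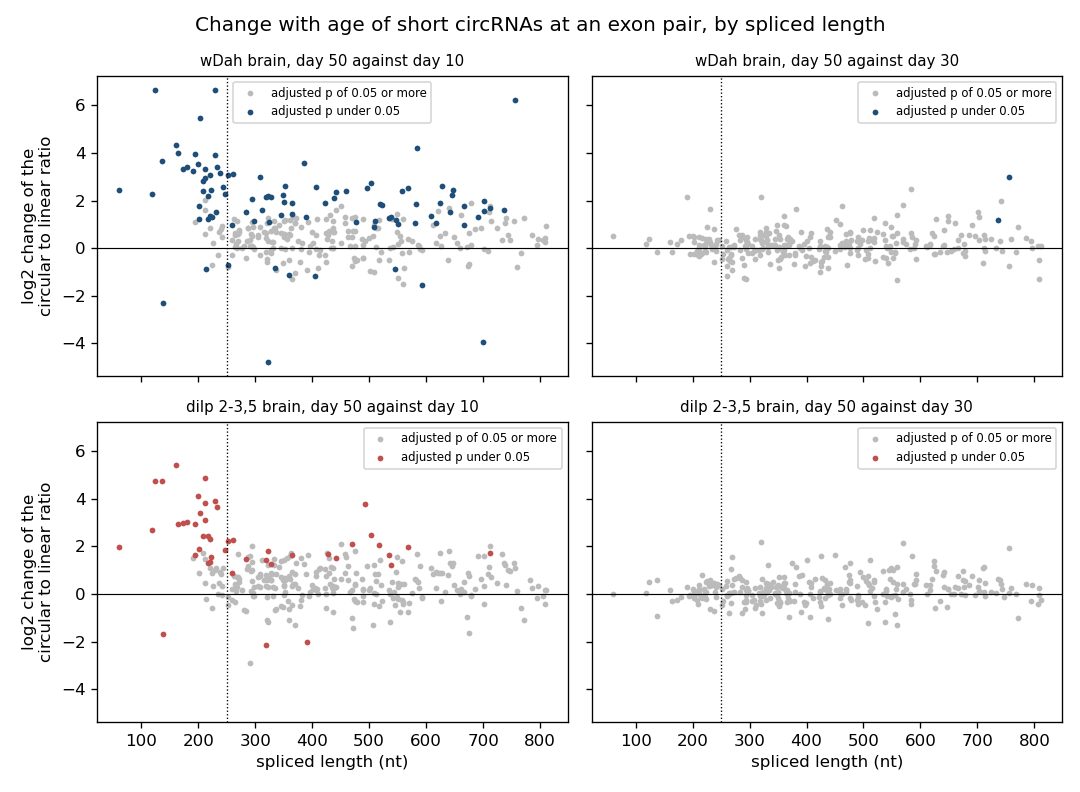
Log2 change of the circular to linear ratio in brain (y axis) against the spliced length in nt (x axis) of the short circRNAs at an exon pair, for wDah (top) and dilp 2-3,5 (bottom), day 50 against day 10 (left) and against day 30 (right). Coloured points had an adjusted p under 0.05, and the dotted line marks 250 nt. On the left the points below 250 nt lie higher, at medians of 2.28 and 1.64, and on the right they lie near 0.

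Circles of the calcium and phosphatase genes Stim, alph and Caps show the pattern (these examples were chosen after their values were seen). The single-library counts of the 233-base circle of Stim, the sensor of calcium stores, in wDah brain were 18, 18 and 9 at day 10, 42, 39 and 81 at day 30, and 40, 69 and 102 at day 50, while the linear reads were 67 to 82, 20 to 33 and 28 to 34. Circular reads rose and linear reads fell, both without overlap between day 10 and the later days, and the ratio was higher at day 50 by 3.40 ± 0.38 (log2 ± SE, adjusted p = 5.16e-07, edgeR). In the mutant it was higher by 3.68 ± 0.46 (adjusted p = 1.81e-05, edgeR). These counts are not scaled to depth. All linear reads per wDah brain library summed to 222302 to 229918 at day 10, 131096 to 191979 at day 30 and 130752 to 160807 at day 50. The part of depth in the fall of the Stim linear reads was not tested. The alph circle, 161 nt when spliced, had 3, 4 and 0 circular reads at day 10, 44, 51 and 37 at day 30 and 83, 67 and 64 at day 50, at linear reads of 38 to 69 throughout. In mutant brain it had 2, 1 and 0, then 45, 57 and 57, then 81, 35 and 67. The 137-base circle of Caps, which acts in release of dense-core vesicles, had 7, 0 and 2 circular reads at day 10, 13, 19 and 21 at day 30 and 12, 7 and 17 at day 50 in wDah (log2 3.68 ± 0.58, adjusted p = 6.13e-05, edgeR). Longer abundant circles changed less, and the CaMKI circle (259 nt) had a ratio higher by 0.99 ± 0.16 in wDah and 0.88 ± 0.17 in mutant brain (adjusted p = 6.13e-05 and 0.00188, edgeR). The values for Dbp80 were 0.11 ± 0.17 and 0.14 ± 0.20 and those for mbl 0.22 ± 0.18 and 0.19 ± 0.19, none past the threshold.

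Summed over the circles of up to 250 nt, their share of all circular reads in brain was 2.13 to 2.46% at day 10, 3.78 to 5.24% at day 30 and 4.42 to 5.09% at day 50, both genotypes together. In thorax it was 2.67 to 3.36%, 4.41 to 6.16% and 4.45 to 5.29%. In both tissues day 10 lay below the later days without overlap, and days 30 and 50 overlapped. In gut (3.91 to 6.14% at day 10, 6.02 to 10.8% at day 50) the ages overlapped, and in fat body day 10 (5.07 to 6.76%) lay below day 50 (7.73 to 10.2%).

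Whether the genotype effect itself differed between days 10 and 50 was tested in each tissue, and 1 short circle passed, the 586-base CaMKI circle in thorax (0.145% of all circRNAs tested there, edgeR). At day 10 its ratio was 42.9, 39.0 and 38.9 circular per 100 linear reads in wDah thorax and 55.2, 68.7 and 56.8 in the mutant. At day 50 it was 79.5, 97.7 and 110 in wDah and 71.3, 86.0 and 74.1 in the mutant. The mutant libraries were above the wDah ones at day 10 and overlapped with them at day 50, with 2 of 3 below all wDah libraries. The genotype change was 0.57 ± 0.12 (log2 ± SE, adjusted p = 0.00528, lost without any of 3 libraries) at day 10 and −0.33 ± 0.14 (adjusted p = 0.632) at day 50, and their difference −0.91 ± 0.18 (adjusted p = 0.000163, edgeR). Without wDah replicate 3 it was −0.77 with an adjusted p of 0.0542, and DESeq2 gave −0.89 with an adjusted p of 0.994. The muscle and digestive genes that differed between the genotypes in thorax at both ages are given with the thorax calls, and their part here was not tested. In brain the difference was −0.11 ± 0.26, in gut 0.97 ± 0.78 and in fat body −0.77 ± 0.47, none of them past the threshold. No short circle passed in these 3 tissues, where 54 of 679 had an unadjusted p under 0.05 (6.51% of all) and DESeq2 called 0.

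**Figure D5:**
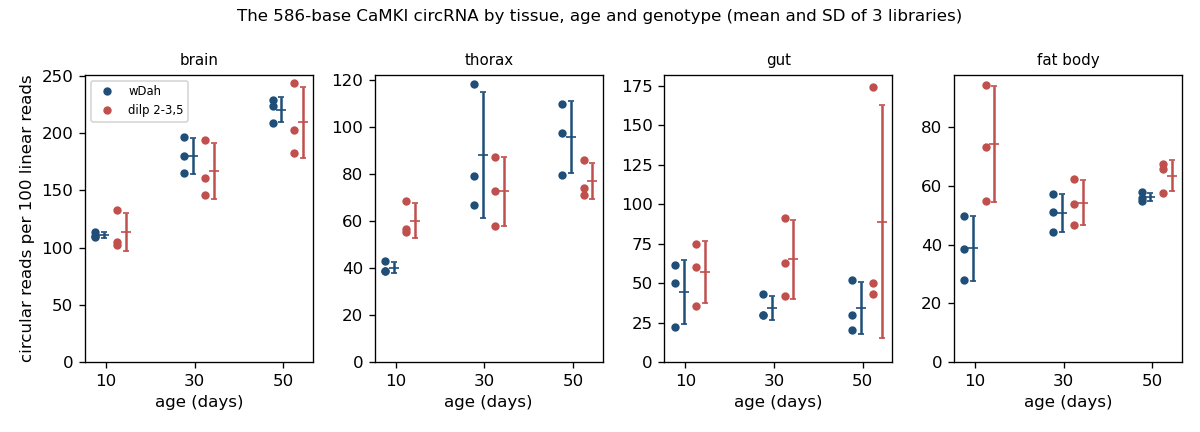
Circular reads of the 586-base CaMKI circRNA per 100 linear reads (y axis, a separate scale for each tissue, all from 0) against age in days (x axis); points are libraries, bars the mean and SD of 3 libraries, wDah blue and dilp 2-3,5 red. In brain both genotypes run from 103 to 132 at day 10 to 183 to 243 at day 50, and in thorax the mutant is above wDah without overlap at day 10 only.

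Polysome-bound RNA of day 10 fat body was sequenced to ask which circles accompany translating ribosomes. The table of these libraries held 206 circRNAs, 84 of them among the 398 short circles, and each of the 84 had at least 1 polysome read. Another 17 of the 206 were not among the circRNAs ordered by span, so they counted toward the total reads but not as short circles. The short circles made up 41.5 to 49.0% of circular reads in the 6 polysome libraries and 51.5 to 54.5% in the 6 total RNA libraries, without overlap. The part of those 17 in this difference was not tested. Polysome libraries held fewer circular reads, 1019 to 2059 against 2680 to 7517. The most polysome reads came from the 586-base CaMKI circle, with 59, 79 and 66 in wDah and 220, 170 and 78 in the mutant, against 219, 373 and 231 and 820, 509 and 694 in total RNA. After TMM scaling, its polysome level was lower by −0.72 ± 0.21 in wDah (adjusted p = 0.150) and −0.43 ± 0.25 in the mutant (adjusted p = 0.428), neither past the threshold (edgeR). It was followed by Yp1 and CG17646 in wDah and by the 268-base CaMKI circle and Dbp80 in the mutant.

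In the mutant, 8 of the 84 short circles differed between polysomes and total RNA, 3 higher and 5 lower (4.37% of all circRNAs tested were called, edgeR). In wDah none did, with 20 of 84 at an unadjusted p under 0.05 (11.3% of all) and 1 called by DESeq2. The circles of 7SL were lower on polysomes, with 96, 75 and 145 reads in total RNA and 5, 11 and 5 on polysomes for CR32864 (log2 −2.20 ± 0.38, adjusted p = 0.00505, edgeR). The mbl circle had 159, 218 and 113 against 12, 19 and 21 (log2 −1.56 ± 0.39, adjusted p = 0.0252), and in wDah 125, 175 and 107 against 10, 7 and 29 (log2 −1.83 ± 0.42, adjusted p = 0.0938). The circles of CG13784 (−1.73 ± 0.39) and of the cation channel gene Trpm (−1.57 ± 0.42) were lower too. The 138-base circle of Plc21C, a phospholipase C, had 15, 6 and 10 reads in total RNA and 11, 14 and 15 on polysomes, at a polysome depth of 1254 to 2059 against 4620 to 7517 circular reads (log2 2.11 ± 0.38, adjusted p = 0.00505). The circle of Gug, the atrophin gene, had 77, 38 and 61 against 66, 40 and 20 (log2 1.22 ± 0.28, adjusted p = 0.0182). The 133-base lcs circle had 1, 1 and 3 against 2, 16 and 7 (log2 3.91 ± 0.80, adjusted p = 0.0118). Of these 8, the 7SL call for CR32864 held without each library in turn, and the other 7 calls were each lost without at least 1 library, with adjusted p of up to 0.282. Circles with a start codon gave 44.5 to 56.0% of the polysome reads of the short circles and 50.7 to 61.9% of their reads in total RNA, with overlapping ranges.

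The hosts of the 398 circles were 308 genes, of which 66 gave 2 or more circles. Read against lists of host genes, synapse and ion channel genes hosted 18 of the 398 short circles (4.52%) and 97 of the remaining 796 circRNAs (12.2%). Protein kinases and phosphatases (11 and 17), RNA-binding and splicing factors (11 and 19), cytoskeleton and adhesion genes (7 and 23), muscle genes (6 and 4) and insulin and TOR signalling genes (4 and 3) were each few. No chaperone hosted a short circle, against 2 of the others. The kinase and phosphatase circles had 76302 circular reads, most of them from CaMKI, and 7 of the 11 had a higher ratio in brain than in gut (35% of all circRNAs tested), 7 a higher ratio than in fat body (24.7% of all) and 4 a higher ratio than in thorax (29.4% of all), with 1 lower in each of the last 2 comparisons. Among the 18 synapse and channel circles, 9 were higher at day 50 than at day 10 in wDah brain (24.4% of all circRNAs tested) and 5 in mutant brain (11.1% of all), none lower, at medians of 1.37 and 0.58. These were beside medians of 0.72 and 0.52 over all circRNAs. Of the same 18, 4 had a higher ratio in brain than in thorax (29.4% of all), and none was lower. A higher ratio in brain was called for 1 against gut (35% of all) and 2 against fat body (24.7% of all), with 0 lower. The medians of these 3 tissue comparisons were 0.76, −0.99 and −0.25. Of the 4 insulin and TOR circles, none was called for genotype or between days 50 and 30, where up to 4 were tested. Between days 50 and 10, 1 of 2 was lower in wDah thorax, in wDah gut and in mutant gut, where 13.9%, 14.5% and 5.61% of all circRNAs tested changed in either direction. In brain, 3 of 4 had a higher ratio than in gut (35% of all) and than in thorax (29.4% of all, with the other 1 lower), and 2 of 4 than in fat body (24.7% of all).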

How the data were processed

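The circular and linear read counts were deposited by the authors, who aligned total RNA reads to BDGP6 with STAR 2.5.2b, called circRNAs with DCC and kept those with at least 5 reads in 6 samples. The counts are not normalized. Pooled FPKM values, 1 per group, were made by the authors with HISAT2 2.0.4, StringTie 1.3.0 and Cuffdiff 2.2.1, and were used only for marker genes. The study tested ratios with a beta-binomial model, which was not run here. The authors' own comparisons, which hold p-values of that model by tissue and age and for polysomes, were not used.

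In edgeR 4.0.16 (R 4.3.3), every library gave a circular and a linear column and had its own term, and a quasi-likelihood test compared the circular to linear ratio of both sides. A circRNA was tested if its circular reads and its linear reads each summed to 10 or more in the comparison, with Benjamini-Hochberg adjustment over all of them and a threshold of 0.05. Brain was compared with other tissues with age as a term. Polysome and total RNA libraries were compared on circular reads alone after TMM scaling, with at least 10 circular reads. The code was run on simulated counts for comparisons of genotype, age, tissue and polysomes, but not for the test of genotype and age together. Exons, start codons and flanking introns came from an Ensembl annotation of BDGP6, and sequences from the RefSeq genome of the same build. No molecular identifiers are described in the sources used here.

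Named circles were, by rule, the 5 shortest and those at the limit, the 10 with most circular reads, the leading genotype, age, tissue, interaction and polysome calls, and circles of sfl, btsz, CaMKI, Pkn and Pdk1. Other called circles were named after their values were seen. The circRNAs and gene lists were chosen with earlier results of these data known. Same-numbered replicates of different groups did not deviate together (correlations of −0.25 to 0.21 in 30 comparisons), so the numbers were not used as pairs. No 2 libraries were identical. Alternatives were DESeq2 1.42.0, circular reads alone, other minimums, a fit over the whole tissue, exclusion of linear counts over 7000 or of noncoding hosts, a replicate block and leaving out each replicate. Restriction to exon pairs and the share without CaMKI and mbl were added after seeing the data.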

Additional observations from a re-analysis of the deposited data

Results flagged for a closer look

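The 586-base CaMKI circRNA in thorax stood out because the genotype effect on its ratio differed between days 10 and 50 by −0.91 on the log2 scale (edgeR quasi-likelihood test, adjusted p = 0.000163), the only such circle among the 257 short circles tested there. All 3 mutant libraries were above the 3 wDah libraries at day 10, and 2 of the 3 were below all wDah libraries at day 50. The call was lost with DESeq2 (−0.89, adjusted p = 0.994), without wDah replicate 3 (−0.77, adjusted p = 0.0542) and with the replicate block (−0.88, adjusted p = 0.0604). The day 10 libraries were generated independently in both genotypes.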

How the results depend on the processing

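Over the short circRNAs, the 20 genotype calls became 1 with DESeq2, 66 and 49 with circular reads alone (TMM and equal library sizes) and 13 with no minimum. The 3 calls between days 50 and 30 became 0 with DESeq2, 9 with TMM, 5 with no minimum, 5 with a minimum of 30 reads and 1 without linear counts over 7000. The 324 calls between days 50 and 10 became 158 with DESeq2 and 494 with equal library sizes. The 392 tissue calls became 939 with TMM and 1037 with equal library sizes. The 1 interaction call became 0 with DESeq2, 7 with TMM, 4 with equal sizes and 4 with a minimum of 30 reads. The 8 polysome calls became 49 relative to linear reads and 101 with equal sizes.

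With the replicate block, counts were 17 for genotype, 3 and 329 for days 50 v 30 and 50 v 10, 371 for tissue, 0 for the interaction and 18 for polysomes. Leaving out 1 replicate gave 7 to 31, 0 to 5, 193 to 298, 340 to 380, 1 to 3 and 2 to 12.

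The share of circular reads had a median of 55.6% over the 72 libraries. It became 49.2% for the 298 shortest circRNAs, 71.8% for the 597 shortest and 46.9% without CaMKI and mbl. Without 1 replicate it was 55.0 to 56.1%. The ratio of summed reads had a median of 1.31 circular per 100 linear reads over the libraries. It became 4.47 without linear counts over 7000, 14.9 with exon pairs of 1 transcript only and 2.81 as a median over circRNAs. Without 1 replicate it was 1.29 to 1.36.

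Directions turned in 5 cases with circular reads alone. These were amon against thorax (0.25, equal sizes), sif against gut (3.80 with TMM, 5.89 with equal sizes), Galphao against fat body (0.81, equal sizes) and Gug on mutant polysomes (−0.48, equal sizes). Among the other named results, 525 values stayed on their side of the threshold and 211 lost the call. The causes were not tested. Depth limits the gut most, at 503 circular reads in the shallowest library.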
